A study of Mus musculus with 96 samples.

Results

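Zinc finger genes with a symbol made of Zfp and a number were examined for promoter marks in the nuclei of mouse hippocampal cells. They were taken by symbol from the H3K4me3 peaks that the deposited annotation assigned to a promoter, in neuronal (NeuN+) or non-neuronal (NeuN-) nuclei, and every peak with one of these symbols in the H3K27me3 and Suz12 tables was added. The rule gave 274 genes among the 11277 genes with a promoter peak of H3K4me3. In NeuN+ nuclei 272 of them had such a peak and in NeuN- nuclei 63, of which 61 had one in both. Zfp455 and Zfp992 had one in NeuN- nuclei and no called promoter peak in NeuN+ nuclei, while 211 genes had one in NeuN+ nuclei alone. The genes accounted for 288 of 12628 H3K4me3 peaks in NeuN+ and 63 of 3270 in NeuN- nuclei. They also had 68 of 4132 and 6 of 1698 H3K27me3 peaks, and 3 of 775 and 4 of 312 Suz12 peaks, in NeuN+ and NeuN- nuclei in turn. Peaks had to be called for a gene to enter, so the level of a gene without a peak was not measured here.

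Hippocampi came from C57BL/6N mice of 6 months of age and 4 genotypes: wild type (WT), Mutyh-/-, Ogg1-/- and Ogg1-/- x Mutyh-/- (DKO). Ogg1 excises oxidised guanine from DNA and Mutyh removes adenine that was paired with it. Nuclei of pooled animals of one genotype were sorted on NeuN, a protein of neuronal nuclei, and chromatin was immunoprecipitated for H3K4me3, H3K27me3 or Suz12. Each antibody in each fraction gave a table of 12 libraries, 3 per genotype. A library therefore averages over several animals and over all cell types of its fraction, and fewer cells with a mark cannot be told apart from less of the mark per cell. The values are reads in a window of 401 bp divided by 1 factor per library, called scaled reads below, and they can be ranked within a table but not between tables.

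Most Zfp genes encode transcription factors with an array of zinc fingers, short loops that hold a zinc ion and read a few bases of DNA each. Many carry a KRAB domain at the amino terminus, which recruits Trim28 and, through it, the H3K9 methyltransferase Setdb1 and heterochromatin proteins, and these KRAB zinc finger proteins are known for silencing transposable elements and for holding the methylation of imprinted genes. The genes multiplied by tandem duplication and lie in clusters. H3K4me3 marks active and poised promoters, above all those rich in CpG dinucleotides, whereas H3K27me3 is set by Polycomb repressive complex 2, of which Suz12 is a subunit, and accompanies repression.

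All 8 neuronal markers checked had an H3K4me3 promoter peak in NeuN+ nuclei, with a summed level of 169 to 345 scaled reads per library, and 0 of 8 had one in NeuN- nuclei. Of 5 astrocyte markers, Slc1a3 had a peak in NeuN+ and none had one in NeuN- nuclei, and of 7 oligodendrocyte markers Mbp had one in NeuN+ and Olig1 in NeuN- nuclei. The 5 microglial and 4 endothelial markers had no promoter peak in either fraction. The neuronal markers thus go with the NeuN+ label, but the markers name no cell type in the NeuN- fraction beyond Olig1. Only 3018 genes had a promoter peak in NeuN- nuclei, beside 11160 in NeuN+, so a missing NeuN- peak says little. Mbp lay above 72.3% of NeuN+ promoter peaks, where the median of the neuronal markers was 58.5%. Reads in H3K4me3 peaks ran from 96023 (DKO replicate 1) to 548706 (Ogg1-/- replicate 3) in NeuN+ and from 39320 to 120004 in NeuN- libraries, and Zfp promoters received 2059 to 12371 and 305 to 982 of them. The Ogg1 promoter peak, which need not lie in the deleted part of the gene, held 15.4, 5.85 and 10.8 scaled reads in the WT, 17.9, 6.15 and 13.8 in the Ogg1-/- and 0, 14.5 and 5.31 in the DKO libraries, and these groups overlapped. It is therefore no check of the knockout labels, and Mutyh had no H3K4me3 peak.

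Zfp promoters were marked in neuronal nuclei more often than promoters in general, but at a lower level. Of 367 protein-coding Zfp genes in RefSeq, 73.8% had a promoter peak in NeuN+ nuclei, beside 48.7% of all 21896 protein-coding genes. In NeuN- nuclei the shares were 17.2% and 13.2%. The median WT level of the 288 NeuN+ peaks was 21.6 scaled reads, with quartiles of 17.2 and 26.6, against 24.1 over all 11771 promoter peaks. Above the median of that table lay 106 Zfp peaks or 36.8%, 11 peaks (3.82%) reached its top 10% and 24 (8.33%) fell into its lowest 10%. The 63 NeuN- peaks had a median of 8.93 scaled reads beside 8.88 for all 3055 promoter peaks, and 50.8% of them lay above that median. Replicates spread equally for Zfp and other promoters, with a median coefficient of variation in WT of 33.8% and 32.4% in NeuN+ and of 53.6% and 53.5% in NeuN- nuclei. Members share libraries and sequence features, so these shares are descriptions without a test.

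**Figure D1:**
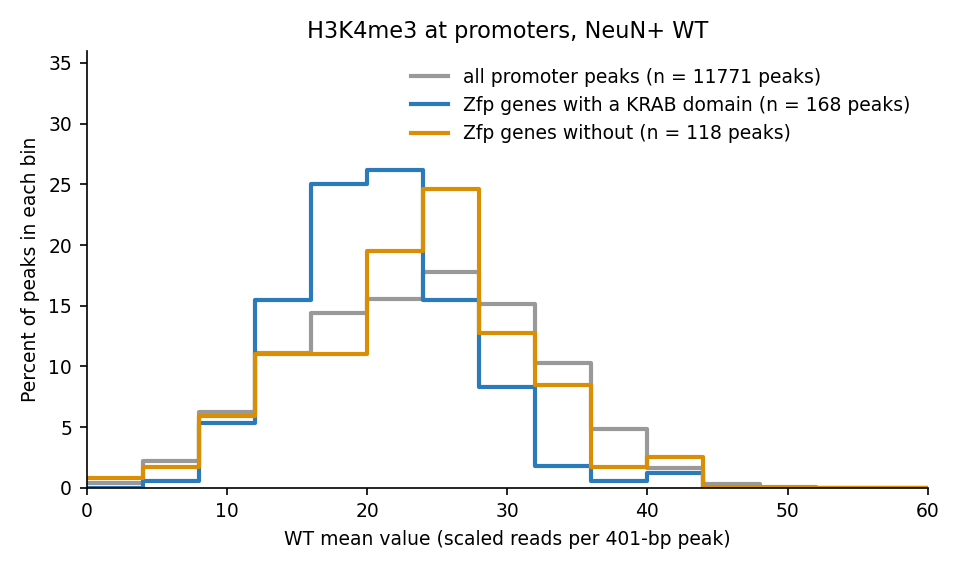
Distribution of the WT mean H3K4me3 level (x axis, scaled reads per 401-bp peak, in bins of 4) in NeuN+ nuclei, as the percent of peaks in each bin (y axis), for all 11771 promoter peaks (grey), 168 peaks of Zfp genes with a KRAB domain (blue) and 118 peaks of Zfp genes without one (orange). The KRAB genes peak between 16 and 24 scaled reads, to the left of all promoters, while the genes without KRAB follow them more closely.

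The most strongly marked Zfp promoter in neuronal nuclei was that of Zfp202, a gene with both KRAB and zinc finger parts, at chr9:40192362-40192762. It held 61.7, 29.3 and 39.8 scaled reads in the 3 WT libraries (43.6 ± 16.6, SD, n = 3), above 99.5% of promoter peaks. Zfp704 followed at 42.0 ± 6.98, Zfp281, a regulator of pluripotent cells, at 40.4 ± 17.2, Zfp622, a factor in the assembly of the large ribosomal subunit, at 40.2 ± 3.54 and Zfp689 at 40.1 ± 18.4. These 5 genes did not differ beyond their spread. At the other end, the promoter of Zfp536, which restrains neuronal differentiation, held 6.43, 5.85 and 1.08 scaled reads (4.45 ± 2.94) and that of Zfp512 held 9.004, 1.95 and 7.54 (6.16 ± 3.72). Zfp446 at 6.61 ± 3.66 and Zfp595 at 9.20 ± 1.46 completed the 5 lowest together with one of the peaks of Zfp516, at 3.89 ± 3.90. Every WT value of Zfp202 lay above every WT value of Zfp536 and Zfp512, and the highest Zfp level was 11.2 times the lowest.

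Promoters from both ends of this range are shown to set the sequence at the start beside the mark. Each window holds 250 bases before and 50 after the RefSeq start (GRCm38.p6), 5′ to 3′ on the strand of the gene, with CpG dinucleotides in capitals. Zfp202 (chr9:40192066-40192365, plus strand) has 17 CpG, Zfp281 (chr1:136624651-136624950, plus strand) 27, Zfp536 (chr7:37769703-37770002, minus strand) 22 and Zfp512 (chr5:31452186-31452485, plus strand) 15.
Zfp202: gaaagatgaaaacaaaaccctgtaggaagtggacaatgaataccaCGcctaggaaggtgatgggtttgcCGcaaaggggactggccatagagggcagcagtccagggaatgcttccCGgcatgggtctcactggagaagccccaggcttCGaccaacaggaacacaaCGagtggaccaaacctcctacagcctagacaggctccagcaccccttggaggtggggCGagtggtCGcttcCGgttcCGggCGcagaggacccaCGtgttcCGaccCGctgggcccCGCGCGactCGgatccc
Zfp281: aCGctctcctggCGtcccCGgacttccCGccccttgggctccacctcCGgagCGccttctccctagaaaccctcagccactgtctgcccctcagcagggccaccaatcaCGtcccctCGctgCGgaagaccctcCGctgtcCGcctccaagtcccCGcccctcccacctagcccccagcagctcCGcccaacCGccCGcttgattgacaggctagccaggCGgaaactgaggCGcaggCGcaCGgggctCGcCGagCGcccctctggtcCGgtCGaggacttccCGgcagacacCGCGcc
Zfp536: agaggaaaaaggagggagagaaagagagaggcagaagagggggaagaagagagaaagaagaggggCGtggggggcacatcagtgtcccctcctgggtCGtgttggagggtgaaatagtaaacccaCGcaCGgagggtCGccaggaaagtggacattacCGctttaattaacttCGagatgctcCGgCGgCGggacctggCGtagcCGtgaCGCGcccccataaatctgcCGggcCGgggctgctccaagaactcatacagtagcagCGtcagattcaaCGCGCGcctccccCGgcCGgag
Zfp512: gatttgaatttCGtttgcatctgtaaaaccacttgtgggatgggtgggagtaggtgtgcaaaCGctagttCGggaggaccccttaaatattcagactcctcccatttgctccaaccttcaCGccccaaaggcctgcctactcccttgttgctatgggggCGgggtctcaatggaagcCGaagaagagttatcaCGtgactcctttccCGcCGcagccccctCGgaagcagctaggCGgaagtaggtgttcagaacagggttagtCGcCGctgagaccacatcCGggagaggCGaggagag
The Zfp536 window is not poor in CpG, but the centre of its H3K4me3 peak lies upstream of this start, at another annotated start of the gene, where the 401 bp counted hold 6 CpG and 38.7% GC. The Zfp512 peak, 398 bp downstream, holds 9 CpG. In contrast, the peaks of Zfp202 and Zfp281 hold 39 and 54 CpG.

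CpG content ordered the Zfp promoters in the same way as all promoters. The median Zfp peak in NeuN+ nuclei had 27 CpG and 62.8% GC, where all promoter peaks had 35 and 67.1%, and the ratio of observed to expected CpG was 0.729 against 0.7997. Across the 288 Zfp peaks the correlation of CpG number with WT level was r = 0.37 (rho = 0.40), and across all promoter peaks r = 0.37 (rho = 0.38). These are correlations over peaks that share libraries, and base composition can affect read counts by itself. Within classes of CpG number the Zfp medians came close to those of all promoters: 18.2 and 18.3 scaled reads at 10 to 19 CpG, 21.3 and 21.5 at 20 to 29, 23.3 and 24.4 at 30 to 39, and 25.98 and 27.5 at 40 or more. Hence the lower level of Zfp promoters went along with a lower CpG number, whose part in the difference was not tested. A start of another protein-coding gene on the opposite strand within 1 kb was found at 17 Zfp peaks (5.90%) and at 10.7% of all promoter peaks. Peaks of Zfp genes covered the annotated start more often, in 65.3% of cases against 54.6%.

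**Figure D2:**
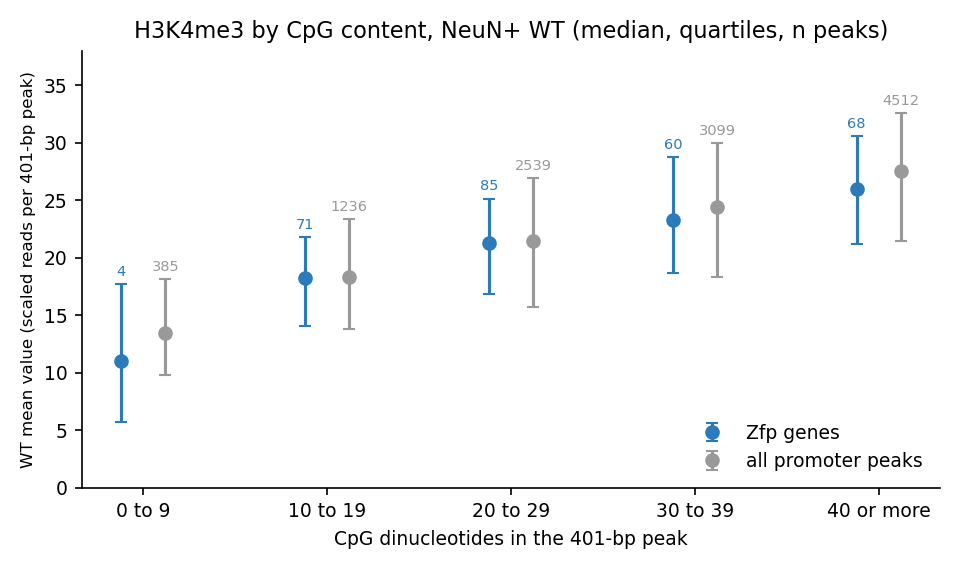
WT H3K4me3 level in NeuN+ nuclei (y axis, scaled reads per 401-bp peak) by the number of CpG dinucleotides in the peak (x axis), with medians as points, quartiles as bars and the number of peaks above each, for Zfp genes (blue) and all promoter peaks (grey). Both rise from about 18.2 at 10 to 19 CpG to 25.98 and 27.5 at 40 or more, and the quartiles overlap in every class.

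KRAB and other Zfp genes differed in their promoters. A profile built from 123 KRAB windows of 40 residues was found in the translated coding sequence of 162 of 272 genes that had one. KRAB proteins had a median of 12 zinc fingers (2 to 33) and the other 110 proteins 7.5 (0 to 36), with Zfp142 at 36 and the KRAB protein Zfp619 at 33. The 168 KRAB peaks had a median of 23 CpG, 59.1% GC and a WT level of 20.6 scaled reads. The 118 peaks without KRAB had 37 CpG, 70.0% GC and 24.3 scaled reads, close to all promoters. Divergent starts were also less frequent at KRAB genes, with 3.57% against 9.32%.

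Zfp promoter peaks were concentrated on a few chromosomes. Chromosome 7 held 73 of the 288 NeuN+ peaks (25.3%) but 7.34% of all promoter peaks, chromosome 17 held 32 (11.1%) and chromosome 13 held 27 (9.38%), while the X chromosome held 1. With gaps of at most 250 kb and at least 5 genes, 11 clusters contained 89 genes with 95 peaks. Of the genes in clusters 86.5% had a KRAB domain, compared with 45.9% outside. Cluster promoters had a median of 22 CpG and 19.7 scaled reads in WT, and the 193 peaks outside had 30 CpG and 22.7. A promoter peak in NeuN- nuclei as well was seen for 18.0% of genes in clusters and 24.6% of those outside. Reads from near-identical copies cannot always be placed, and how the alignment treated them was not stated, so levels within young clusters are uncertain.

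Median levels varied between the clusters, which is described here without a test. The cluster from Zfp712 to Zfp273 on chromosome 13 (753 kb, 14 genes, each with a KRAB domain) had a median of 12 CpG and of 18.0 scaled reads over 17 peaks. Zfp84 to Zfp146 on chromosome 7 (402 kb, 14 genes, 16 peaks) had a median of 19.6, Zfp180 to Zfp428 on the same chromosome 19.0 and Zfp677 to Zfp943 on chromosome 17 17.0. The lowest median was 15.0 for Zfp787 to Zfp28 on chromosome 7 and the highest 31.0 for Zfp786 to Zfp746 on chromosome 6. The last cluster contained 7 genes, 6 of them with KRAB, had 45 CpG per peak, and its peaks lay between 25.1 and 34.1 scaled reads. No peak of Zfp787 to Zfp28 exceeded 22.5, and its peaks had a median of 23 CpG. WT means of these clusters did not overlap, but they were picked as the highest and lowest medians of 11.

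**Figure D3:**
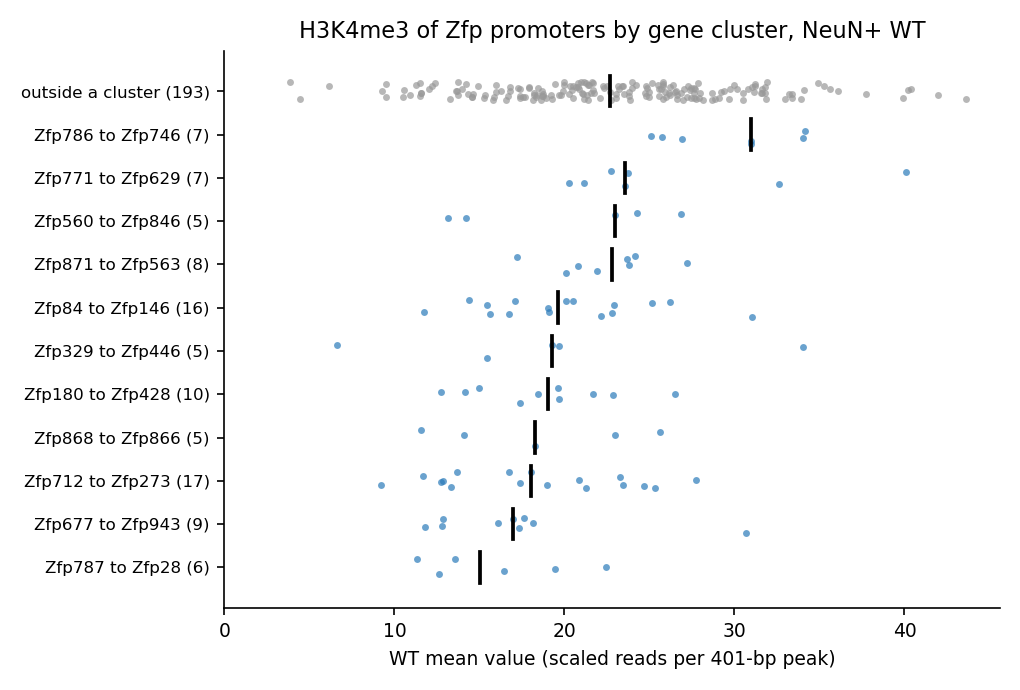
WT mean H3K4me3 level in NeuN+ nuclei (x axis, scaled reads per 401-bp peak) of each Zfp promoter peak (points) in 11 gene clusters and outside a cluster (rows, number of peaks in brackets), with the median as a line. Medians run from 15.0 in Zfp787 to Zfp28 to 31.0 in Zfp786 to Zfp746, and most clusters lie below the 22.7 of the 193 peaks outside.

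For 16 genes a pair of promoter peaks was called in NeuN+ nuclei. The largest contrast in WT was at Zfp516, where the peak 5541 bp away held 24.8 ± 5.95 scaled reads and the weaker one 3.89 ± 3.90 (SD, n = 3), a ratio of 6.38. At Zfp672 the peaks held 33.4 ± 4.05 and 10.6 ± 4.65, a ratio of 3.16, and at Zfp597 20.5 ± 6.00 and 9.51 ± 5.60, a ratio of 2.16. In the other genes the ratio was at most 1.63.

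Short sequence motifs were counted on both strands of the 300-base RefSeq windows, which could be matched to 221 Zfp genes with a NeuN+ peak and to 8535 genes with a NeuN+ promoter peak. The motif TACANNTCC, part of the recognition sequence of the zinc finger activator Zfp143, was found in 46 Zfp promoters (20.8%) and in 6.37% of all. It was present in 25.5% of KRAB and 12.0% of other Zfp promoters. The GC box GGGCGG was found in 47.5% of Zfp and 71.6% of all promoters, the ETS motif CCGGAAG in 21.7% and 18.2%, and the CCAAT box in 41.2% and 37.0%. YY1 (AAGATGGCG), NRF1 (GCGCATGC), CRE (TGACGTCA) and TATAAA motifs differed by less, with 4.07%, 6.79%, 3.62% and 6.33% of Zfp promoters and 3.28%, 5.83%, 3.53% and 5.65% of all. Zfp promoters with TACANNTCC had 10.5 CpG in the window and a median level of 19.3 scaled reads, and those without it 18 and 23.0. In all genes the same split gave 18 and 24 CpG and levels of 23.7 and 24.5. A match describes the sequence, not a bound site, and motifs can overlap each other.

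Groups of Zfp genes by role stood at different levels. Of 16 genes with general roles in transcription, RNA and ribosomes, 15 had a NeuN+ promoter peak. Their 17 peaks had a median of 29.4 scaled reads and 48 CpG. Besides Zfp281 and Zfp622 they included Zfp598, a ligase of ribosome quality control, at 39.9 ± 21.2, Zfp143 at 27.5 ± 6.19 and Zfp207, a spindle factor, at 24.8 ± 2.93, and Zfp36, which promotes mRNA decay, had no peak. Among 11 genes of neural and other development, 8 had a peak, with a median of 14.9 scaled reads and 32 CpG. There Zfp365 reached 30.5 ± 9.86 and Zfp703 28.7 ± 9.24, but Zfp423 (14.9 ± 0.739 and 14.3 ± 12.6 at its peaks) and its paralog Zfp521 (17.4 ± 6.02) were lower, and Zfp488, Zfp238 and Zfp804 had no peak under these symbols. Of 7 genes known for silencing of transposons or imprinted loci, 6 had a peak, with a median of 21.3 scaled reads and 23 CpG. Zfp568, a repressor of a placental Igf2 transcript, stood at 31.0 ± 6.82, Zfp809, which silences retroviruses, at 28.8 ± 11.2 and Zfp445, which protects imprints, at 21.4 ± 3.07, but Zfp57, with the same role, at 11.3 ± 7.07. The stem cell gene Zfp42 had no peak.

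Where they had a promoter peak, the cofactors through which KRAB proteins act were marked more strongly than the KRAB genes themselves. Of 23 cofactor genes 18 had a NeuN+ promoter peak with a median of 28.7 scaled reads, beside 20.6 at KRAB genes. The cofactor peaks had a median of 51.5 CpG and the KRAB peaks 23. All promoter peaks with 40 or more CpG had a median level of 27.5, and the part of CpG number in the difference was not tested. Trim28, the scaffold that binds KRAB domains, had 27.7 ± 7.28 (SD, n = 3). The H3K9 methyltransferase gene Ehmt1 was highest at 46.7 ± 16.9, Hdac2 stood at 38.2 ± 5.92 and Suv39h1 was lowest at 9.58 ± 5.08. Setdb1, Cbx3, Cbx5, Chd4 and Morc2a had no called promoter peak.

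In NeuN- nuclei the highest Zfp peak belonged to Zfp503, a repressor in brain development, with 19.4, 22.1 and 15.4 scaled reads in WT (18.9 ± 3.37), above 99.3% of promoter peaks. In NeuN+ nuclei its WT values were 20.6, 16.6 and 6.46, above 15.4% of promoter peaks. It thus stood near the top of one table and in the lower part of the other, though the scales of the tables cannot be compared. Zfp622 followed at 17.7 ± 7.60 and Zfp157 at 15.7 ± 7.70 in NeuN- nuclei. The lowest were Zfp992 at 1.84 ± 3.19, Zfp189, which shares its promoter with Mrpl50, at 2.04 ± 2.43 and Zfp213 at 2.50 ± 3.06, each with a WT library at 0. Of the genes found in NeuN- nuclei alone, Zfp455 held 19.4, 11.03 and 0 scaled reads. The Zfp503 promoter window (chr14:21989552-21989851, minus strand, CpG in capitals) is shown since the gene recurs with Polycomb marks below, and it holds 19 CpG.
Zfp503: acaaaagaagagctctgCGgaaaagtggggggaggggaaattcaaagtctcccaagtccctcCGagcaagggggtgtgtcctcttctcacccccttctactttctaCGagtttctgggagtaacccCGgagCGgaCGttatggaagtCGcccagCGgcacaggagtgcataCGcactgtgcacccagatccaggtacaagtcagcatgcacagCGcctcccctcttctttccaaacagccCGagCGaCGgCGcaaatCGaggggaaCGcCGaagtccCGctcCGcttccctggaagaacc
The H3K4me3 peak lies downstream of this start, with its centre 2066 bp away in NeuN+ nuclei, and contains 54 CpG there.

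Without the glycosylases, few Zfp promoters differed from WT in H3K4me3, and none did so after correction over all peaks. Peaks were called changed (DERs) in limma where p before adjustment was below 0.05 and the log2 fold change to WT exceeded 0.5 in size. In NeuN+ nuclei 4 of 288 Zfp peaks were DERs in Mutyh-/- (2 higher and 2 lower), where 0.911% of all peaks were, 4 in Ogg1-/- (3 higher and 1 lower) with a background of 0.966%, and 3 in DKO (2 higher and 1 lower) with a background of 1.46%. That is 1.39%, 1.39% and 1.04% of the Zfp peaks. In NeuN- nuclei 1 of 63 was a DER in Mutyh-/- (background 2.94%), 1 in Ogg1-/- (3.36%) and 0 in DKO (2.29%). For DKO limma also gave 0 at an unadjusted p under 0.05, and edgeR with TMM factors called 1 (3.39% of all peaks). With Benjamini-Hochberg adjustment over all peaks of a table, limma and edgeR left 0 Zfp peaks in each contrast, and the smallest adjusted p in limma was 0.9988, for DKO in NeuN- nuclei. Shares this close to the background are no result about the Zfp genes. The directions of the NeuN+ calls turned with single libraries, for example from 3 higher and 1 lower in Ogg1-/- to 0 and 6 without Ogg1-/- replicate 3, and from 2 and 1 in DKO to 0 and 3 without WT replicate 2. All 3 contrasts of a table use the same WT libraries. In NeuN+ nuclei 5.77%, 3.68% and 5.02% of all peaks were fully separated from WT in Mutyh-/-, Ogg1-/- and DKO. Of the Zfp peaks 3.125%, 4.17% and 4.17% were. In NeuN- nuclei the shares were 9.24%, 8.29% and 5.02% of all peaks and 4.76%, 6.35% and 4.76% of Zfp peaks. A lack of overlap named below is therefore a description of a peak already picked for its difference.

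The median log2 fold change of Zfp peaks in NeuN+ nuclei was -0.04 in Mutyh-/-, 0.11 in Ogg1-/- and -0.03 in DKO, beside -0.07, 0.08 and -0.02 for all peaks, with a median standard error of 0.49 for a single peak. In NeuN- nuclei it was 0.18, 0.21 and 0.04 beside 0.22, 0.25 and 0.05, with a standard error of 0.86. TMM scaling moved the median of all NeuN- peaks from 0.22 to 0.01 in Mutyh-/- and from 0.25 to 0.07 in Ogg1-/-, while the Zfp median became -0.02 and 0.02. With TMM factors limma called 6, 13 and 11 Zfp peaks in NeuN+ nuclei (3 higher and 3 lower, 7 and 6, 6 and 5), when it called 3.75%, 3.81% and 5.54% of all peaks, and edgeR called 6, 16 and 5 (4 higher and 2 lower, 8 and 8, 4 and 1) of 4.01%, 3.97% and 3.88%. Zfp promoters together received 2.26% ± 0.0598 of the promoter signal in WT, 2.32% ± 0.0405 in Mutyh-/-, 2.32% ± 0.0502 in Ogg1-/- and 2.29% ± 0.0251 in DKO (SD, n = 3), so the means differed by about 1 SD or less.

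**Figure D4:**
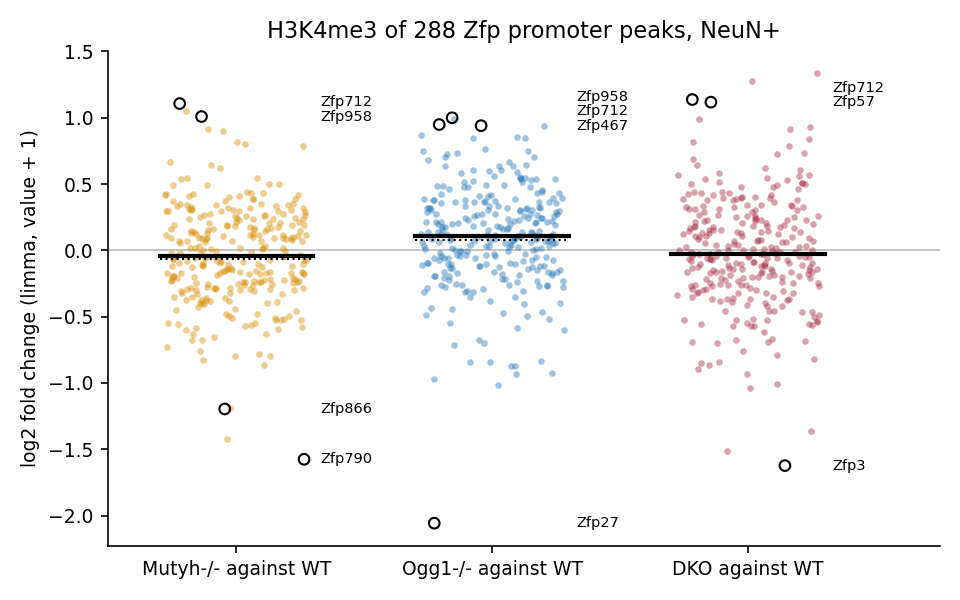
Log2 fold change of H3K4me3 in NeuN+ nuclei (y axis, limma on log2(value + 1)) of the 288 Zfp promoter peaks (points) for each genotype against WT (x axis), with the Zfp median as a solid line, the median of all 12628 peaks as a dotted line and DERs circled and named. Medians lie between -0.07 and 0.11, and Zfp712 is circled in each contrast.

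Zfp712, a KRAB gene at the edge of the cluster on chromosome 13, was a DER in all 3 knockouts, which were compared with the same WT libraries. Its peak at chr13:67060707-67061107 held 14.1, 6.83 and 17.2 scaled reads in WT, 22.9, 27.6 and 30.7 in Mutyh-/-, 21.4, 18.5 and 34.6 in Ogg1-/- and 24.8, 31.4 and 26.5 in DKO libraries. Each of the 9 knockout values lay above each of the WT values. In limma the log2 fold changes were 1.11 in Mutyh-/-, 0.95 in Ogg1-/- and 1.14 in DKO, each with a standard error of 0.447. Without WT replicate 2, the lowest of the libraries, they were 0.74, 0.59 and 0.78 and no longer DERs. The call in Mutyh-/- also ended without Mutyh-/- replicate 2 (1.09) or 3 (1.01), that in Ogg1-/- without Ogg1-/- replicate 1 (1.03) or 3 (0.69) and that in DKO without DKO replicate 2 (1.04). Of 10 alternative fits per contrast, 1 ended a call, that in Ogg1-/- with a pseudocount of 5 (0.76). The promoter window (chr13:67061121-67061420, minus strand), chosen after the values were seen, holds TACANNTCC on the opposite strand, which reads as the capitals.
Zfp712: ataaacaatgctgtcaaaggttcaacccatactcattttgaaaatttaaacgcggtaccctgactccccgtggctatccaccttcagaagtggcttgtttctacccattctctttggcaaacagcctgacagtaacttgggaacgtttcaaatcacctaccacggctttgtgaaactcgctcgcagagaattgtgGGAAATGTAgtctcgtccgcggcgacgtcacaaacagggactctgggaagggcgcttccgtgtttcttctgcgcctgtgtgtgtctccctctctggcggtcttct

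Zfp958, another KRAB gene, rose in both single knockouts. Its peak at chr8:4613255-4613655 held 21.9, 11.7 and 14.0 scaled reads in WT, 31.6, 43.2 and 23.7 in Mutyh-/-, 32.1, 25.6 and 38.5 in Ogg1-/- and 20.3, 21.7 and 28.0 in DKO. The single knockouts did not overlap with WT, but DKO did. The log2 fold changes in limma were 1.01 in Mutyh-/- and 1.00 in Ogg1-/-, with a standard error of 0.414, and in DKO, not a DER, 0.56. The contrast of DKO with the sum of the single effects was -1.45 (standard error 0.585) and was called. Calls of the single knockouts ended without WT replicate 2 (0.83 and 0.82) or WT replicate 3 (0.95 and 0.94), and also without Mutyh-/- replicate 2 (0.80), Ogg1-/- replicate 1 (0.99) or Ogg1-/- replicate 3 (0.86). Its window (chr8:4613090-4613389, plus strand), likewise chosen after the values were seen, is shown with a pair of adjacent CCAAT boxes, the first on the opposite strand, and an ETS motif on the opposite strand in capitals.
Zfp958: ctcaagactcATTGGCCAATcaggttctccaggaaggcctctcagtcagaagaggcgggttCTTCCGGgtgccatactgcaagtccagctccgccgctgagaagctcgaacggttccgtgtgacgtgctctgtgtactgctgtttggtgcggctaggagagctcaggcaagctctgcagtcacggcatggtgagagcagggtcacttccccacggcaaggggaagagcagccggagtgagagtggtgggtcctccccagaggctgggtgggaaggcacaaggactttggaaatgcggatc

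Zfp57, the KRAB gene that keeps methylation at imprinted loci, rose in DKO. Its promoter peak at chr17:37002536-37002936 held 18.0, 3.90 and 11.8 scaled reads in WT and 20.3, 16.1 and 32.6 in DKO, with 1 DKO value within the WT range. The log2 fold change in limma was 1.12 (standard error 0.539), and in Mutyh-/- and Ogg1-/-, where it was not called, 1.05 and 0.99. Without WT replicate 2 (0.56) or DKO replicate 3 (0.85) the DKO effect was no DER, and 9 of 10 alternative fits called it. Zfp467, a gene without KRAB that acts in adipocyte and bone cells, rose in Ogg1-/- from 23.2, 11.7 and 20.5 to 33.3, 29.7 and 43.1 scaled reads, without overlap (log2 fold change 0.94, standard error 0.439). This call ended without WT replicate 2 (0.66), Ogg1-/- replicate 1 (0.97) or Ogg1-/- replicate 3 (0.79). The Zfp57 window (chr17:37002275-37002574, plus strand), also chosen after the values were seen, holds 9 CpG (capitals). The H3K4me3 peak itself, with its centre 211 bp downstream of this start, holds 34 CpG and 66.1% GC.
Zfp57: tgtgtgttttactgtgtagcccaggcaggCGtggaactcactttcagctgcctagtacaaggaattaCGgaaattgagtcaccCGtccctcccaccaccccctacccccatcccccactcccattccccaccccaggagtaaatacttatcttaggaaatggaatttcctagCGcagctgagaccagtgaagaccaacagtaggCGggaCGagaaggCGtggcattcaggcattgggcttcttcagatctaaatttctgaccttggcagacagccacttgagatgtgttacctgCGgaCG

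Zfp27, a KRAB gene in the cluster from Zfp84 to Zfp146 on chromosome 7, fell in Ogg1-/-. Its peak at chr7:29906019-29906419 held 15.4, 13.7 and 14.0 scaled reads in WT and 1.19, 3.08 and 4.61 in Ogg1-/-, which stand for 12, 14 and 13 reads and 1, 3 and 6 reads. Mutyh-/- had 6.54, 5.51 and 12.3 and DKO 11.3, 9.65 and 13.6, so every knockout library was below every WT library and Ogg1-/- lay lowest. The log2 fold change of Ogg1-/- in limma was -2.06 (standard error 0.717), and in Mutyh-/- and DKO, where it was not called, -0.82 and -0.31. The contrast of DKO with the sum of the single effects was 2.58 (standard error 1.01). The call in Ogg1-/- was kept under all 9 alternatives run for this peak and without each of the 6 libraries of the contrast in turn, with effects between -2.37 and -1.30. Zfp27 and Zfp958 were the 2 Zfp peaks with a non-additive effect in NeuN+ nuclei (background 0.839%), and Zfp27 and Zfp712 the 2 with an unadjusted p under 0.05 in limma's F test over the 4 genotypes (background 0.451%). In NeuN- nuclei 0 of 63 had either in limma (backgrounds 3.03% and 1.87%), and edgeR called 1 for the non-additive effect (background 2.97%).

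The other DERs of NeuN+ nuclei were lower than WT. Zfp866, a KRAB gene on chromosome 8, fell in Mutyh-/- from 18.0, 18.5 and 18.3 to 6.54, 4.59 and 13.1 scaled reads (log2 fold change -1.20, standard error 0.572), without overlap. This call ended without WT replicate 1 (-1.21), WT replicate 2 (-1.19), WT replicate 3 (-1.20), Mutyh-/- replicate 1 (-1.12) or Mutyh-/- replicate 2 (-0.90), and 8 of 9 alternative fits kept it. Zfp790, in the cluster of Zfp27, was called lower in Mutyh-/- at one of its peaks, with 16.7, 19.5 and 14.0 in WT and 0, 15.6 and 11.4 in Mutyh-/-. Its effect was -1.58 (standard error 0.765), and -0.29 without Mutyh-/- replicate 1, the library at 0. The call ended too without WT replicate 1 (-1.57), 2 (-1.47) or 3 (-1.69), and 5 of 9 alternative fits called the peak, edgeR with TMM factors (-0.86) not among them. Zfp3 was called lower in DKO, with 41.2, 16.6 and 31.2 in WT and 0, 31.4 and 24.3 in DKO. The effect was -1.62 (standard error 0.729), and -0.01 without DKO replicate 1, the library with the fewest reads of the table. Without WT replicate 1 (-1.35) or 3 (-1.54) it was no DER either, and 6 of 10 alternative fits called it, but not edgeR with TMM factors (-0.48).

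**Figure D5:**
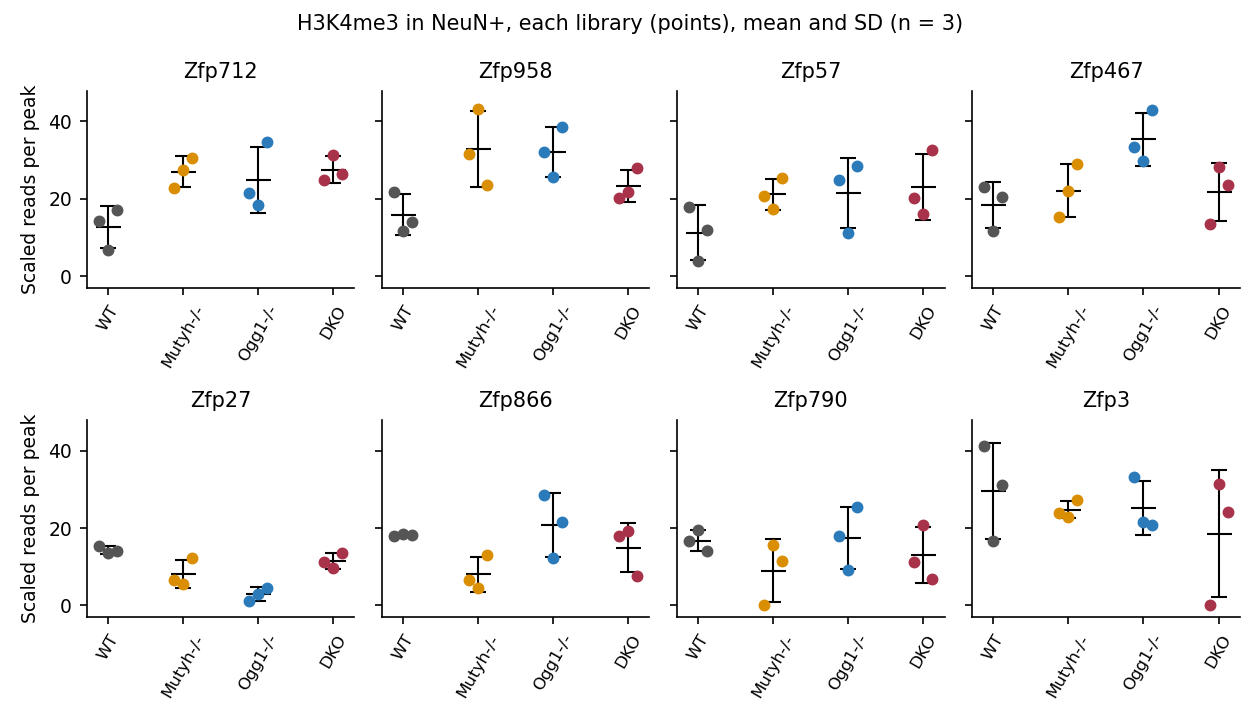
H3K4me3 in NeuN+ nuclei (y axis, scaled reads per 401-bp peak) at the 8 Zfp genes with a DER, for each library (points) of WT, Mutyh-/-, Ogg1-/- and DKO (x axis), with mean and SD as bars (n = 3). WT replicates of Zfp712 lie between 6.83 and 17.2, below all knockout values, and Ogg1-/- replicates of Zfp27 lie between 1.19 and 4.61, while single libraries at 0 set Zfp790 and Zfp3 apart.

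Of the role groups, the silencing genes had 1 DER in NeuN+ nuclei, the rise of Zfp57 in DKO, and 0 in the single knockouts. Of their 7 peaks, 0 had an unadjusted p under 0.05 in these 2 contrasts in limma, while edgeR with TMM factors called Zfp57 in both. The development genes, the general genes and the KRAB cofactors had 0 DERs and 0 peaks with an unadjusted p under 0.05 in NeuN+ nuclei in limma with the deposited scaling. With TMM factors, limma and edgeR called the general gene Zfp143 lower in DKO (-0.90 and -0.84), and limma called Zfp207 lower in Ogg1-/- (-1.03). The KRAB cofactors were looked up in the main fit alone. In NeuN- nuclei Zfp622 was called lower in Mutyh-/-. Its peak held 26.3, 15.0 and 11.8 scaled reads in WT and 20.9, 0.864 and 6.50 in Mutyh-/- (log2 fold change -1.40, standard error 0.691). It was no DER without Mutyh-/- replicate 2 (-0.47), WT replicate 1 (-1.09) or WT replicate 2 (-1.47), and 7 of 10 alternative fits called it. Zfp213 rose in Ogg1-/- from 0, 1.58 and 5.91 to 11.9, 9.58 and 8.52, without overlap. This was a log2 fold change of 2.06 (standard error 1.00) at 5 reads or fewer per WT library. The call ended without WT replicate 1 (1.37) or 2 (2.05) or without Ogg1-/- replicate 1 (1.94), 2 (2.08) or 3 (2.16), and 4 of 9 alternative fits called it. KRAB genes carried 4, 3 and 2 of the NeuN+ DERs in Mutyh-/-, Ogg1-/- and DKO and 168 of the 288 peaks, and genes in clusters carried 3, 2 and 1 and 95 peaks.

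Zfp promoters close to the targeted genes were looked at separately. Within 10 Mb of Ogg1 on chromosome 6 lay Zfp422, at 3.29 Mb, and Zfp637, Zfp239, Zfp248 and Zfp9, at 4.51 to 5.14 Mb. Near Mutyh on chromosome 4 lay Zfp691, at 2.35 Mb, and Zfp69, at 4.13 Mb. In limma, 0 of these 7 genes had an unadjusted p under 0.05 in a contrast of NeuN+ nuclei with WT, nor had the peak of Zfp248 in NeuN- nuclei.

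Between the fractions, the effect of a knockout could be compared at 60 Zfp peaks that overlapped one to one, without setting levels of the tables against each other. For Mutyh-/- 0 of 60 had an unadjusted p under 0.05 for the difference in limma (background 2.3%), for Ogg1-/- 1 (1.8%) and for DKO 0 (1.8%), and 0 passed the adjustment. With the replicate number as a block in each fraction the counts were 1 (Zfp568), 1 and 2 (Zfp825 and Zfp335). In the fit without it the exception was Zfp503 in Ogg1-/-. Its NeuN+ values were 20.6, 16.6 and 6.46 in WT and 28.6, 15.4 and 33.1 in Ogg1-/-, and its NeuN- values 19.4, 22.1 and 15.4 against 13.9, 7.18 and 9.94. The groups overlapped in NeuN+ but not in NeuN- nuclei, and the difference of effects was 1.69 in limma (standard error 0.757, Benjamini-Hochberg adjusted p = 0.9996).

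Repressive marks were rare at Zfp promoters. Of the 272 genes with H3K4me3 in NeuN+ nuclei, 4 (1.47%) had an H3K27me3 promoter peak there, compared with 3.22% of all such genes, and 25 (9.19%) had an H3K27me3 peak of any annotation, compared with 7.01%. A Suz12 peak was assigned to 1 of them (0.368%), against 1.97%. The 68 H3K27me3 peaks in NeuN+ nuclei belonged to 26 genes, with 45 in distal intergenic sequence, 16 in introns and 4 in promoters (5.88%, against 26.5% of all H3K27me3 peaks). Their median WT level was 4.34 scaled reads beside 5.20, 20.6% of them were masked as repeats over at least 50% of bases beside 10.2%, and 48.5% had a WT library at 0 beside 34.3%. Distal peaks are assigned to the closest gene, so they may not belong to it.

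The promoters with H3K27me3 in NeuN+ nuclei were those of Zfp217, Zfp521, Zfp503 and Zfp536. Zfp217, which recruits corepressors, held 10.95, 8.86 and 10.3 scaled reads in WT at its promoter (10.0 ± 1.08), and had 7 peaks over 164 kb. Zfp521 had 13 peaks over 346 kb, the highest at 7.57 ± 2.78 in an intron. H3K4me3 was low at these 4 genes as well, with levels of 14.2 for Zfp217, 17.4 for Zfp521, 14.5 for Zfp503 and 4.45 for Zfp536, below the median of 24.1 of all promoters. Among genes with an H3K4me3 promoter peak in NeuN+ nuclei, Zfp503 was the one with a Suz12 peak there. It held 14.8, 1.98 and 21.5 scaled reads, a wide spread, and Zfp992 had the other 2 Suz12 peaks. Of these 3 Suz12 peaks 0 were annotated to a promoter. Outside promoters the highest H3K27me3 levels were 10.7 ± 10.9 at Zfp40, 10.6 ± 5.00 at Zfp64, 9.88 ± 11.1 at Zfp992 and 9.88 ± 7.17 at Zfp644, where the SD was about as large as the mean except at Zfp64 and Zfp644. Zfp317, Zfp709, Zfp788, Zfp551, Zfp493, Zfp180 and Zfp507 had their highest NeuN+ peak between 7.35 and 5.48 scaled reads, and Zfp618 its highest at 5.45 in NeuN- nuclei.

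Few of these peaks differed between genotypes. In H3K27me3 of NeuN+ nuclei, limma called 4 of 68 Zfp peaks in Mutyh-/- (background 3.78%), 3 in Ogg1-/- (3.82%) and 1 in DKO (3.36%). In NeuN- nuclei it called 0 of 6 in Mutyh-/- (background 2%), 1 in Ogg1-/- (4.18%) and 0 in DKO (2.3%). For Suz12 it called 0 of 3 in NeuN+ nuclei (backgrounds 5.16%, 3.74% and 2.58% in Mutyh-/-, Ogg1-/- and DKO) and 0 of 4 in NeuN- nuclei (3.85%, 11.2% and 6.73%). Each of these counts of 0 was also 0 at an unadjusted p under 0.05 and in edgeR with TMM factors, and 0 Zfp peaks passed the adjustment, with a smallest limma adjusted p = 0.963 for H3K27me3 and adjusted p = 0.453 for Suz12. For H3K27me3 in NeuN+ nuclei edgeR called 4, 1 and 1 Zfp peaks, when it called 3.61%, 3.22% and 2.52% of all peaks.

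Zfp317, on chromosome 9, was the one Zfp gene with an H3K27me3 DER in more than 1 contrast. Its distal peak held 7.67, 6.64 and 7.76 scaled reads in WT, 0, 0 and 2.00 in Mutyh-/-, 4.95, 9.41 and 0 in Ogg1-/- and 1.09, 0 and 0 in DKO. Mutyh-/- and DKO lay below WT without overlap, and Ogg1-/- overlapped. The log2 fold changes were -2.53 in Mutyh-/- and -2.70 in DKO, each with a standard error of 1.06. An intronic peak assigned to Zfp644, a partner of the H3K9 methyltransferases Ehmt1 and Ehmt2, fell in Mutyh-/- by 2.60 on the log2 scale (standard error 1.02). Distal peaks assigned to Zfp619 and Zfp938 rose there by 2.21 (1.05) and 1.87 (0.931). Few reads lay behind both rises, with 0, 4 and 0 in WT and 3, 10 and 10 in Mutyh-/- at Zfp619. At Zfp938 they were 1, 2 and 3 in WT and 11, 7 and 10 in Mutyh-/-. The Zfp619 peak was masked as a repeat over 70.6% of its bases. In Ogg1-/- an intronic Zfp521 peak (-2.70, standard error 1.07) and a distal Zfp217 peak (-2.05, 1.03) fell. A distal Zfp709 peak was called higher (1.71, 0.862), but not with edgeR, a pseudocount of 5 or robust empirical Bayes. Other calls moved with the fit as well. In Mutyh-/- the main fit called 2 Zfp peaks higher and 2 lower. There edgeR with TMM factors called 3 and 1, robust empirical Bayes 1 and 2, and a pseudocount of 5 gave 4 and 2. In Ogg1-/- edgeR called 1 Zfp peak lower, where the main fit called 2. Which of the other named peaks each fit kept is not given here. For Zfp217 and Zfp709 an interval of 2 standard errors included 0. The promoter peak of Zfp217 was not called in any contrast. In NeuN- nuclei an intronic Zfp992 peak fell in Ogg1-/- (-2.18, standard error 1.09), from 3.97, 8.29 and 5.77 to 0, 0 and 2.38 scaled reads.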

How the data were processed

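Chromatin of sorted hippocampal nuclei was immunoprecipitated and sequenced with single-end reads. Per the labels and the study's methods, reads were checked with FastQC 0.11.9 and aligned to GRCm38/mm10 with Bowtie2 2.3.5.1, and peaks were called (SICER per the labels, epic2 per the methods), kept when found in at least 2 of 3 replicates, counted with DiffBind 3.10.1 and annotated with ChIPseeker 1.36. The deposited signal values are reads per peak of 401 bp that the authors divided by 1 factor per library, whose kind is not given in the sources used here. Every value was a whole multiple of 1 step per library (tolerance 0.01), which recovered the reads. Of the 6 tables, 72 libraries were used, and input libraries were not analysed here.

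Groups were taken from the labels. Because the values were scaled, limma 3.58.1 (R 4.3.3) was fitted with a mean-variance trend to log2(value + 1) of all peaks and all 12 libraries of a table, with genotype as the term and Benjamini-Hochberg adjustment over the table. A replicate is a library of pooled nuclei, so tests measure the spread between libraries, which limma shares over peaks. In the H3K27me3 and Suz12 fits the prior degrees of freedom were infinite, so a peak's own spread had no weight in its standard error. For H3K4me3 they were 24.9 in NeuN+ and 58.3 in NeuN- nuclei, beside 8 residual degrees of freedom. The recovered reads were also tested with edgeR 4.0.16 and DESeq2 1.42.0. The difference between fractions was tested on 3000 peaks that overlapped one to one by at least 1 bp. The fit was tested on simulated reads with the same dispersion for all peaks and with changes placed only in peaks above a minimum mean level. For DKO against WT it recovered 54% of 2-fold and 100% of 4-fold changes in NeuN+ and 45% and 89% in NeuN- nuclei. It called 5.48% and 4.85% of unchanged peaks, whereas the deposited values gave 0.911% to 1.46% in NeuN+ nuclei. The simulated spread thus differed from that of the data, and the shares recovered do not carry over to it.

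In translated GENCODE vM21 coding sequences, zinc fingers were counted by their pattern of cysteines and histidines, and KRAB domains were sought with PyHMMER 0.12.3 at an E-value of 0.01. CpG and GC were counted in the peaks. RefSeq promoter windows (GRCm38.p6) were matched by symbol to 223 of the 274 genes. Same-numbered libraries deviated together, with each correlation above 0.1, only for Mutyh-/- in the Suz12 table of NeuN+ nuclei (0.388, 0.186 and 0.119). The members, gene lists and tests were chosen with earlier results of these data known. Named in the text were Ogg1 and Mutyh, up to 4 DERs in each direction of each H3K4me3 contrast, the 5 highest and 5 lowest genes in NeuN+ and 3 and 3 in NeuN- nuclei, the 15 highest for H3K27me3 or Suz12, genes within 10 Mb of Ogg1 or Mutyh, genes with a NeuN- promoter peak alone, and members of the lists.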

Additional observations from a re-analysis of the deposited data

Results flagged for a closer look

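The effect of Ogg1-/- at the Zfp503 promoter differed between the fractions before adjustment. Subtracting the NeuN- from the NeuN+ log2 fold change gave 1.69 (standard error 0.757), which did not pass the correction over 3000 peaks (limma, Benjamini-Hochberg adjusted p = 0.9996). Of 60 Zfp peaks 1 had such a difference, where 1.8% of all peaks did. In NeuN- nuclei 3 of 3 Ogg1-/- libraries lay below each WT library, and in NeuN+ nuclei 2 of 3 lay above each. With a pseudocount of 5 the difference was 1.34, an alternative chosen after seeing the data.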

How the results depend on the processing

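Counts of Zfp peaks called moved with the fit, and the share of all peaks called by the same fit is given in brackets. The main counts in NeuN+ nuclei were 4 (Mutyh-/-), 4 (Ogg1-/-) and 3 (DKO). For Mutyh-/- the count became 2 with edgeR on the authors' factors (0.942%) and also 2 without the lowest 25% of peaks (0.718%). For Ogg1-/- it became 10 with DESeq2 (2.99%), 16 with edgeR and TMM factors (3.97%) and 13 with limma and TMM factors (3.81%). For DKO these fits gave 5 (2.81%), 5 (3.88%) and 11 (5.54%). In NeuN- nuclei the Mutyh-/- count of 1 became 2 with DESeq2, with edgeR and TMM factors or with limma and TMM factors, and 0 with a pseudocount of 5 or without the lowest 25% of peaks. The Ogg1-/- count of 1 became 3 with limma and TMM factors (5.11%). It became 0 with edgeR on the authors' factors (1.59%), promoter peaks only (2.62%), robust empirical Bayes (3.24%) or without the lowest 25% (2.77%). The DKO count of 0 became 5 with DESeq2 (4.34%), 3 with limma and TMM factors (5.38%) and 2 with promoter peaks only (2.03%). It became 1 with edgeR and TMM factors (3.39%), a pseudocount of 0.5 (2.45%) or robust empirical Bayes (2.39%). The non-additive count of 2 in NeuN+ nuclei became 11 with edgeR and TMM factors (3.90%). That of 0 in NeuN- nuclei became 1 with this fit (2.97%) or with a pseudocount of 5 (3.24%). Alternatives for the non-additive effect, the difference between fractions and WT levels were chosen after seeing the data. The cause of these shifts was not tested.

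With the replicate block the NeuN+ counts were 5, 5 and 4, when 1.13%, 1.31% and 1.88% of all peaks were called. The NeuN- count for Mutyh-/- and for DKO was 2 each (5.72% and 4.46%) and that for the non-additive effect 3 (5.38%). The difference between fractions had 1 Zfp peak in Mutyh-/- and 2 in DKO, out of 112 and 85 of the 3000 peak pairs. H3K27me3 and Suz12 together had 12 Zfp calls instead of 9, while calls over all peaks rose in each of their contrasts with WT. In the contrast where same-numbered libraries deviated together, 0 of 3 Zfp peaks were called with and without the block. Correlations of same-numbered libraries in the other contrasts did not all exceed 0.1, which neither shows nor excludes a tie by number. The block raised calls over all Suz12 peaks of NeuN+ nuclei from 29 to 98 in Ogg1-/- and from 20 to 38 in DKO. Over all H3K4me3 peaks of NeuN- nuclei it raised them from 96 to 187 in Mutyh-/- and from 75 to 146 in DKO. Nuclei of both fractions came from one sort per the study's methods, but the sources used here do not tie that sort to the numbers, and over the 3000 peak pairs same-numbered libraries of the 2 fractions correlated at -0.160 to 0.0892.

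Leaving out 1 library at a time gave 1 (without WT replicate 3) to 8 (without Mutyh-/- replicate 3, 1 higher and 7 lower) calls for Mutyh-/- in NeuN+ nuclei, with 2 without WT replicate 2 (both lower) or without Mutyh-/- replicate 1 (both higher). It gave 1 (without WT replicate 2) to 14 (without Ogg1-/- replicate 2, 13 higher and 1 lower) for Ogg1-/-, with 9 without WT replicate 1 (8 and 1) and 6 without Ogg1-/- replicate 3 (0 and 6), and 3 to 10 (without DKO replicate 2, 1 and 9) for DKO, with 8 without DKO replicate 3 (1 and 7), 6 without WT replicate 1 (6 and 0) and 5 without WT replicate 3 (5 and 0). Calls over all 12628 NeuN+ peaks moved too. For Mutyh-/- they were 107 without WT replicate 3 and 279 without Mutyh-/- replicate 3. For Ogg1-/- they were 118 without WT replicate 2 and 411 without Ogg1-/- replicate 2. For DKO they were 166 without DKO replicate 1 and 510 without DKO replicate 2. In NeuN- nuclei the ranges of Zfp calls were 1 to 2, 0 to 3 and 0 to 2. Calls over all 3270 NeuN- peaks moved as well, for Mutyh-/- from 62 without WT replicate 3 to 150 without WT replicate 1. For H3K27me3 and Suz12 together Zfp calls ran from 4 (without WT replicate 3) to 16 (without WT replicate 1). Shares over all peaks are not given for these other leave-outs, so their ranges are no result about the Zfp genes. The median log2 fold change ranged from -0.25 to 0.12, -0.12 to 0.36 and -0.23 to 0.24 in NeuN+ and from -0.10 to 0.34, -0.04 to 0.53 and -0.37 to 0.34 in NeuN- nuclei, so its sign was not stable. The median WT level stayed between 19.3 and 24.5 in NeuN+ and between 7.49 and 9.57 in NeuN- nuclei. Effects of the H3K4me3 DERs against WT kept their direction in all alternatives and leave-outs run, which in 145 cases stayed on the same side of the threshold and in 59 no longer passed it. NeuN- libraries and the Polycomb tables held few reads per peak, which limits what could be detected there.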
